A study of Mus musculus with 10 samples.

Results

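Skeletal muscle sarcomere and contraction genes were followed in skin wounds of diabetic mice, where the thin panniculus carnosus muscle lies under the dermis. The members were 42 genes chosen by symbol, and all 42 had an array feature among the 30827 genes that the table names. Each gene was represented by its brightest feature that is annotated to a single gene. The comparison asks whether miR-132 mimic changes these genes relative to control mimic, and how the genes vary from wound to wound.

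Wounds of 5 mice received 0.5 nmol of miR-132 mimic, a manufactured RNA made to stand in for the natural microRNA. The wounds of 5 other mice received 0.5 nmol of control mimic. Both mimics were mixed with the carrier MaxSuppressor In Vivo RNA-LANCEr II, brought to 100 µl per wound and injected into the skin at 4 points of the edge right after wounding. All 10 mice were male db/db [BKS(D)-Leprdb/JOrlRj] animals on a C57BL/6 background, aged 11 weeks, with a leptin receptor mutation in every cell that leads to obesity and diabetes. A pair of punch wounds of 4 mm, cut through the panniculus carnosus, was made on the back of each mouse. Tissue from the wound edge was collected 6 days after injury, and 150 ng of RNA from each sample was labelled for Affymetrix Clariom D arrays. There were no unwounded, untreated or non-diabetic mice among the samples analysed here. The sources used here do not say whether the wounds of a mouse were pooled.

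A sarcomere is the contractile unit of a muscle fibre, in which myosin thick filaments pull on actin thin filaments when calcium binds the troponin complex. Fast and slow fibres build it from different myosin, troponin and light chain genes, and mouse back skin carries a sheet of mostly fast fibres, the panniculus carnosus. When a fibre is damaged, myogenic precursor cells switch on the factors Myod1 and Myog, fuse, and make embryonic and perinatal myosin (Myh3 and Myh8) before the adult forms.

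The mature microRNA that the mimic stands for is printed with its seed, bases 2 to 8, in capitals, as RefSeq gives it on GRCm38.p6 at chr11:75173723-75173744 on the + strand.
mmu-miR-132-3p: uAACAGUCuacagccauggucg

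The 250 bases upstream of the start of 4 members are shown because these genes stand for the adult and the developmental behaviour described below. They are skeletal actin (Acta1), a fast myosin (Myh4), embryonic myosin (Myh3) and the myogenic factor myogenin (Myog). Capitals mark E-boxes, CANNTG, the motif that myogenic factors bind, and matches to the MEF2 consensus YTAWWWWTAR, both searched on both strands. In the consensus, Y is C or T, W is A or T and R is A or G. Only full matches are marked, and ctatatttat upstream of Myog misses the consensus at its last base. Sequences are RefSeq's on GRCm38.p6, at chr8:123894776-123895025 on the - strand for Acta1, chr11:67237562-67237811 on the + strand for Myh4, chr11:67078050-67078299 on the + strand for Myh3 and chr1:134289754-134290003 on the + strand for Myog.
Acta1: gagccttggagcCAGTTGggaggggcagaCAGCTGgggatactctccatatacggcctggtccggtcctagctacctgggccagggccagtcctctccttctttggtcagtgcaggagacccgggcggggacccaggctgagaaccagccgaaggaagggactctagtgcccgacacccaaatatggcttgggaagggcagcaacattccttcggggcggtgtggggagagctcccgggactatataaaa
Myh4: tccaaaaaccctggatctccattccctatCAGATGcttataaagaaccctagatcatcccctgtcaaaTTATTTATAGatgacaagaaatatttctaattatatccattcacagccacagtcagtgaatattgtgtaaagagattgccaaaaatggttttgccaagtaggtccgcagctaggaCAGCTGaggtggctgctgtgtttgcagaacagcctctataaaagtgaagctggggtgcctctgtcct
Myh3: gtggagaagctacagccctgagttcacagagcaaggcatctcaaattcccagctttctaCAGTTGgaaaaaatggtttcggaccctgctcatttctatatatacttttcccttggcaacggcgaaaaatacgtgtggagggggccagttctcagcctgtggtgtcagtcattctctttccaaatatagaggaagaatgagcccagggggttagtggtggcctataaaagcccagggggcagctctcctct
Myog: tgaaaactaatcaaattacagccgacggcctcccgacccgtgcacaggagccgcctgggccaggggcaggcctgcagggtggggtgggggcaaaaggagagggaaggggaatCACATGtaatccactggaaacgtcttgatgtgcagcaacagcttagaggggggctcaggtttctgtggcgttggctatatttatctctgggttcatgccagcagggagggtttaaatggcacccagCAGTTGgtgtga

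Of the 42 members, 34 matched a promoter in that table. An E-box CANNTG was present upstream of 29 of these 34 (85.3%), against 66% of all 27025 promoters of the same length. The form CAGCTG, which is counted among the CANNTG matches, was present in 13 of 34 members (38.2%), against 12.8% of all promoters. It lay upstream of 12 of 25 members of the adult fast, shared, calcium and energy lists and of 1 of 9 members of the slow and developmental lists. The MEF2 consensus was found in 6 of 34 (17.6%) against 3.01% of all, the CArG box in 4 of 34 (11.8%) against 1.4%, and CATTCC, the M-CAT motif, in 11 of 34 (32.4%) against 12.6%. These last 3 motifs were also searched on both strands. TATAAA, searched on the gene's own strand, was found in 5 of 34 (14.7%) against 8.12% of all. A match describes the letters in this window and is not a binding site.

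The deposited values are RMA signals taken as log2, on which a step of 1 is a doubling, and they are compared for a gene across arrays and never between genes. Of the members, 38 had a mean above 4.171, the median of all features, and were tested. The other 4, Myh7, Myl2, Myl3 and Myod1, had means at or below 4.12, below the median of all features. Over the whole series, 0 of 17691 genes tested differed at an adjusted p under 0.05 (0%), the lowest adjusted p was 0.597, and 1429 genes had an unadjusted p under 0.05 (limma). The signal span from the 10th to the 90th percentile was narrowest on miR-132 replicates 2 and 5 (4.41 and 4.63), against 4.81 to 5.03 on control arrays. Spike-ins added at hybridisation read 10.57 to 10.98 on miR-132 arrays and 10.43 to 10.61 on control arrays. The 9 skeletal muscle markers Acta1, Ckm, Ttn, Neb, Atp2a1, Mylpf, Tnnt3, Ryr1 and Pvalb and the 9 basal keratinocyte markers were above the level filter on every array. Of 8 heart markers 5 and of 7 brown fat markers 6 had a mean above it, whereas Nppa, Ryr2 and Mybpc3 of heart and Ucp1 of brown fat did not.

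For no muscle gene was the difference between treatments larger than the spread between wounds. Of the 38 members tested, 32 had a lower mean and 6 a higher mean in miR-132 wounds, and 53.6% of all genes tested had a lower mean. The 6 were Mybpc2, Tcap, Trdn, Pvalb, Mb and Pygm, with differences of 0.00 to 0.27. The median difference over the members was -0.43 on the log2 scale, beside -0.02 over all genes. None of the 38 passed an adjusted p of 0.05 in limma, 0 had an unadjusted p under 0.05, where the share over all genes was 8.08% (5.61% lower and 2.47% higher), and 0 had groups that did not overlap, where that share was 0.927%. The lowest p among them was 0.223 for Tpm2, with an adjusted p of 0.751. Because the members move together from wound to wound, the 32 lower means are not 32 separate observations. In whole biopsies, fewer muscle fibres and less of the messenger per fibre cannot be told apart.

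The spread itself was the main feature of these genes. The SE of the difference had a median of 0.70 over the members, against 0.13 over all genes tested. Over the 10 arrays, the median SD of a member was 1.18, against 0.22 over all genes, and 32 of 38 members lay above 0.70, the 95th percentile of all genes, which 5% of all genes exceed. The highest array was a median of 15.1-fold above the lowest, against 1.65-fold over all genes, and 21 of 38 members spanned more than 10-fold. The range ran from 2.20-fold for Tnnt1, slow troponin T, to 224-fold for Myh3. A wide spread was not particular to muscle, since 8 white fat markers had a median SD of 1.06, with 217-fold for Retn. The other cell marker lists had median SDs of 0.13 to 0.68. Within groups, the median SD of the members was 1.31 in miR-132 wounds and 1.09 in control wounds, against 0.23 and 0.17 over all genes.

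**Figure D1:**
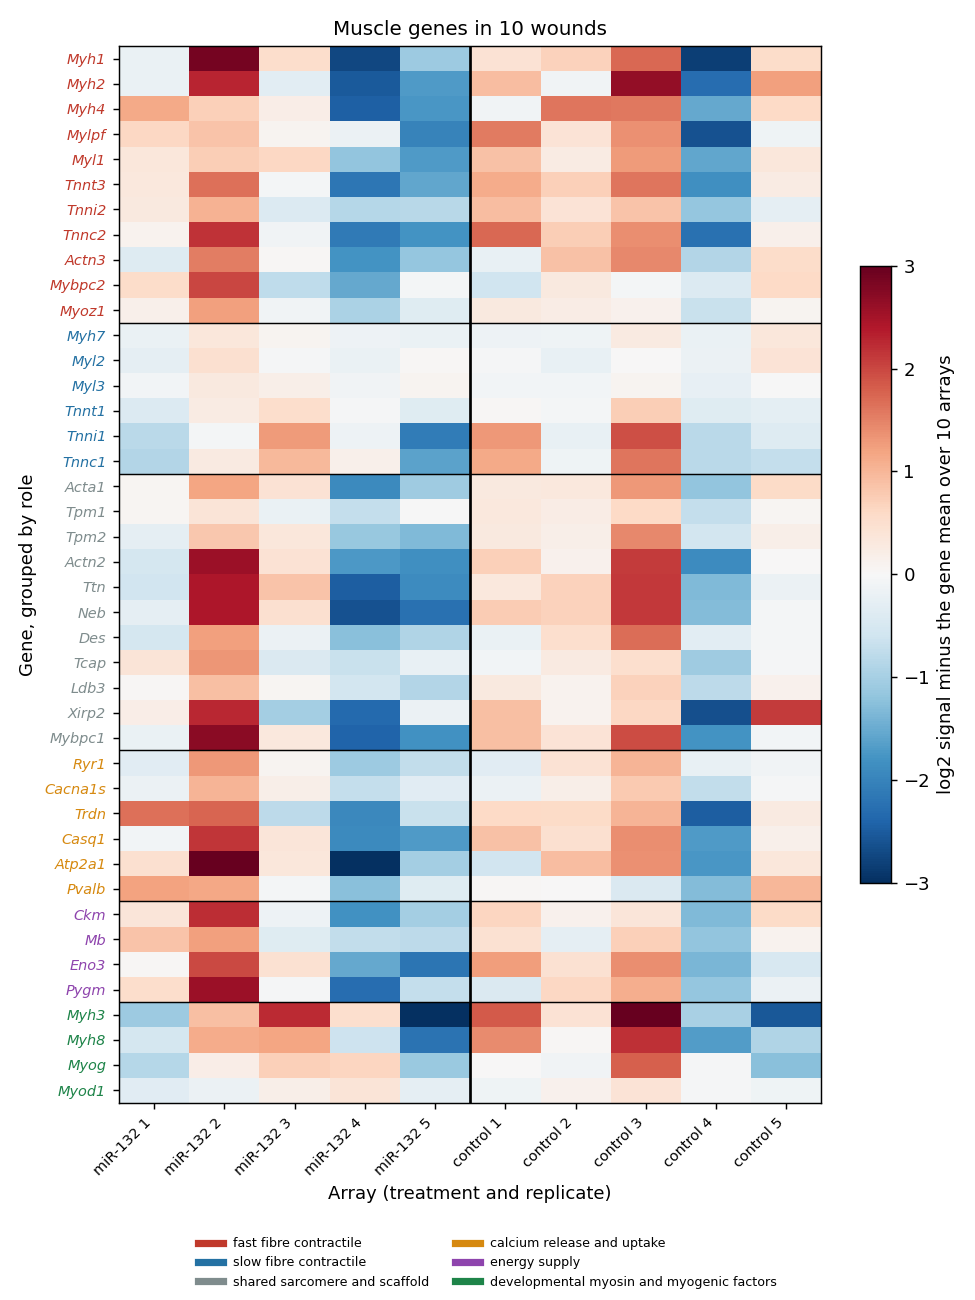
Heat map of the 42 muscle genes, grouped by role, on 5 miR-132 arrays and then 5 control arrays, coloured by log2 signal minus the gene's mean over all 10 arrays, with the colour scale ending at 3 in each direction. miR-132 replicate 2 and control replicate 3 are high for most genes, and miR-132 replicates 4 and 5 and control replicate 4 are low.

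The same few wounds were high or low for most members. The mean signal over the 38 genes was 9.66, 11.12, 9.84, 8.26 and 8.37 on miR-132 replicates 1 to 5, against 10.15, 9.98, 10.93, 8.33 and 9.69 on control replicates 1 to 5. Both treatments therefore held a wound with high and a wound with low muscle signal, and the groups overlapped over nearly their whole range. The group means were 9.45 ± 1.18 in miR-132 wounds and 9.82 ± 0.95 in control wounds (SD, n = 5 each). miR-132 replicate 2 was the highest array for 23 of 38 members and control replicate 3 for 12. miR-132 replicate 4 was the lowest for 17 members, control replicate 4 for 11 and miR-132 replicate 5 for 8. The array with the highest muscle mean, miR-132 replicate 2, is also the one with the narrowest signal span. Without miR-132 replicates 2 and 5, the arrays of narrow span, 33 of 38 members had lower means in miR-132 wounds, with a median difference of -0.60.

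Fast fibre genes were 11 members, all tested, with 10 lower means, 1 higher and a median difference of -0.47. Fast myosin heavy chains are the motors of fast fibres, and they come in the 2X (Myh1), 2A (Myh2) and 2B (Myh4) forms. Myh1 measured 13.95, 17.04, 14.68, 11.44 and 13.07 on miR-132 replicates 1 to 5, against 14.60, 14.86, 15.89, 11.34 and 14.72 on control replicates 1 to 5. Replicate 4 of each treatment was the lowest of its group, and the miR-132 values ran from close to the lowest to above the highest control value. The difference was -0.25 (SE 1.09; limma adjusted p = 0.970).

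Myh2 measured 10.93, 13.41, 10.80, 8.61 and 9.43 in miR-132 wounds, against 12.05, 11.01, 13.76, 8.83 and 12.36 in control wounds. Its groups overlapped although 4 of 5 miR-132 values lay below the control mean, and its difference of -0.97 (SE 1.05; limma adjusted p = 0.822) was the most negative of all members. Myh4 measured 12.75, 12.35, 11.83, 9.18 and 9.87 with miR-132, against 11.53, 13.24, 13.20, 10.08 and 12.21 in controls. Here miR-132 replicates 4 and 5 lay below every control wound while the other 3 lay within the control range. The difference was -0.86 (95% interval -2.72 to 1.01; limma adjusted p = 0.797). Myh1, Myh2, Myh3, Myh4 and Myh8 are similar neighbouring genes on chromosome 11, so probes of one may read another, which was not tested.

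The fast light chains set the speed and regulation of the myosin head. Mylpf, the regulatory one, measured 14.40, 14.63, 13.87, 13.60 and 11.78 in miR-132 wounds, against 15.34, 14.20, 15.16, 11.16 and 13.65 in control wounds. Myl1, the essential one, measured 14.02, 14.42, 14.30, 12.49 and 11.98 with miR-132, against 14.56, 13.92, 14.95, 12.12 and 14.02 in controls. In both genes the lowest miR-132 array was replicate 5 and the lowest control array replicate 4, and the groups overlapped. The differences were -0.25 for Mylpf and -0.47 for Myl1, with SEs of 0.82 and 0.64.

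Fast troponin is the calcium switch of the thin filament, with Tnnt3 binding tropomyosin, Tnni2 inhibiting and Tnnc2 binding calcium. Tnnt3 measured 13.35, 14.69, 12.99, 10.88 and 11.48 in miR-132 wounds, against 14.16, 13.76, 14.66, 11.20 and 13.28 in control wounds. Tnni2 measured 6.75, 7.51, 6.05, 5.60 and 5.63 with miR-132, against 7.38, 6.86, 7.31, 5.29 and 6.19 in controls. Tnnc2 measured 11.56, 13.62, 11.33, 9.32 and 9.65 with miR-132, against 13.16, 12.18, 12.83, 9.20 and 11.59 in controls. All 3 genes were highest on miR-132 replicate 2, and their low arrays were again miR-132 replicates 4 and 5 and control replicate 4. Their differences were -0.73 for Tnnt3, -0.30 for Tnni2 and -0.70 for Tnnc2, with limma adjusted p-values of 0.830, 0.894 and 0.864.

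The remaining fast members were Actn3, the fast fibre actinin of the Z-disc, at -0.71 (SE 0.64), Mybpc2, fast myosin-binding protein C, at 0.07 (SE 0.58), and Myoz1, a Z-disc calsarcin, at -0.01 (SE 0.36).

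Slow fibre genes were 6 members, of which the defining slow myosin and its light chains did not reach the level filter. Myh7, the slow and cardiac myosin motor, measured 3.91, 4.46, 4.18, 3.96 and 3.92 in miR-132 wounds, against 3.95, 3.98, 4.38, 3.91 and 4.44 in control wounds. Myl2, the slow regulatory light chain, measured 3.84, 4.60, 4.07, 3.90 and 4.15 with miR-132, against 4.07, 3.89, 4.12, 3.93 and 4.51 in controls. Neither gene varied by more than 1.69-fold over the 10 wounds, and the groups overlapped. Myl3, the slow essential light chain, ranged from 4.01 to 4.42 in miR-132 wounds and from 3.87 to 4.19 in control wounds.

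The slow troponins were measured above the filter and varied widely. Tnni1 measured 6.31, 7.07, 8.41, 6.97 and 5.02 in miR-132 wounds, against 8.43, 6.91, 9.06, 6.32 and 6.73 in control wounds. Tnnc1, the calcium-binding troponin of slow fibres and heart, measured 6.39, 7.54, 8.25, 7.41 and 5.66 with miR-132, against 8.40, 7.13, 8.87, 6.47 and 6.55 in controls. Tnnt1 measured 5.94, 6.60, 6.86, 6.30 and 5.97 with miR-132, against 6.37, 6.29, 7.08, 5.97 and 6.05 in controls. Each of these was highest in its group on miR-132 replicate 3 and on control replicate 3, and miR-132 replicate 4 lay above miR-132 replicates 1 and 5. The differences were -0.73 for Tnni1 (SE 0.70), -0.43 for Tnnc1 (SE 0.61) and -0.02 for Tnnt1 (SE 0.24; 95% interval -0.56 to 0.53), all overlapping between groups.

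Sarcomere genes shared by fibre types were 11 members, with 10 lower means, 1 higher and a median difference of -0.51. Acta1, the actin of the skeletal thin filament, measured 15.51, 16.64, 15.88, 13.54 and 14.38 in miR-132 wounds, against 15.73, 15.77, 16.74, 14.27 and 16.01 in control wounds. The wounds lay up to 9.19-fold apart, with miR-132 replicate 4 lowest and control replicate 3 highest, and the groups overlapped. The means were 15.19 ± 1.23 in miR-132 wounds and 15.70 ± 0.90 in control wounds (SD, n = 5 each), a difference of -0.51 (95% interval -1.89 to 0.87; limma adjusted p = 0.842).

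Tpm1 and Tpm2 encode tropomyosins, which cover the myosin sites on actin, and Des encodes desmin, the filament that links myofibrils. Tpm1 measured 8.90, 9.24, 8.64, 8.13 and 8.83 in miR-132 wounds, against 9.16, 9.08, 9.44, 8.14 and 8.90 in control wounds. Tpm2 measured 11.08, 12.16, 11.68, 10.21 and 10.02 with miR-132, against 11.64, 11.53, 12.79, 10.79 and 11.53 in controls. Des measured 9.36, 11.11, 9.70, 8.64 and 8.99 with miR-132, against 9.69, 10.40, 11.57, 9.56 and 9.83 in controls. For Tpm2 and Des, miR-132 replicates 4 and 5 lay below every control wound, for Des miR-132 replicate 1 as well, while miR-132 replicate 2 exceeded 4 of the 5. The differences were -0.20 for Tpm1 (SE 0.27), -0.63 for Tpm2 (SE 0.48) and -0.65 for Des (95% interval -1.81 to 0.51). These 3 genes are also made in smooth muscle.

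Of the giant scaffold proteins, titin (Ttn) stood at -0.65 (SE 0.96) and nebulin (Neb), which runs along the thin filament, at -0.88 (SE 0.98), with 29.7-fold and 32.7-fold between the lowest and highest wound. Actn2, the actinin of all Z-discs, stood at -0.44, Mybpc1, slow myosin-binding protein C, at -0.56, Ldb3, a Z-disc adaptor, at -0.17, and Xirp2, an actin-binding protein of muscle attachment sites, at -0.43. Tcap, which caps titin at the Z-disc, was the member with a higher mean, at 0.16 (SE 0.41).

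Calcium release and uptake genes were 6 members 4 lower and 2 higher, with a median difference of -0.07 that turned to 0.09 with further quantile normalization. Ryr1, the calcium release channel of the sarcoplasmic reticulum, measured 6.50, 8.14, 6.92, 5.74 and 6.11 in miR-132 wounds, against 6.50, 7.27, 7.85, 6.62 and 6.73 in control wounds. Atp2a1, the pump that returns calcium to the store in fast fibres, measured 11.37, 13.91, 11.24, 7.77 and 9.87 with miR-132, against 10.32, 11.83, 12.26, 9.14 and 11.23 in controls. Pvalb, the calcium buffer of fast fibres, measured 8.02, 7.97, 6.74, 5.55 and 6.45 with miR-132, against 6.85, 6.83, 6.37, 5.50 and 7.81 in controls. Ryr1 and Atp2a1 were highest on miR-132 replicate 2 and lowest on miR-132 replicate 4, so the miR-132 group alone spanned the full range. The differences were -0.31 for Ryr1 (SE 0.44), -0.12 for Atp2a1 (95% interval -2.46 to 2.21) and 0.27 for Pvalb (SE 0.55). The voltage sensor Cacna1s stood at -0.01, the store calcium binder Casq1 at -0.48 and triadin (Trdn), which anchors Casq1 to the channel, at 0.00.

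Energy supply genes were 4 members, 2 lower and 2 higher, with a median difference of -0.07 that turned to 0.12 with further quantile normalization. Ckm, the muscle creatine kinase that regenerates ATP, measured 9.17, 11.02, 8.66, 6.99 and 7.79 in miR-132 wounds, against 9.45, 8.94, 9.17, 7.49 and 9.39 in control wounds. Again miR-132 replicate 2 was above and replicate 4 below all control wounds, and the difference was -0.16 (95% interval -1.74 to 1.41; limma adjusted p = 0.969). Eno3, muscle enolase, stood at -0.51, and myoglobin (Mb) and the glycogen phosphorylase Pygm stood at 0.08 and 0.02.

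**Figure D2:**
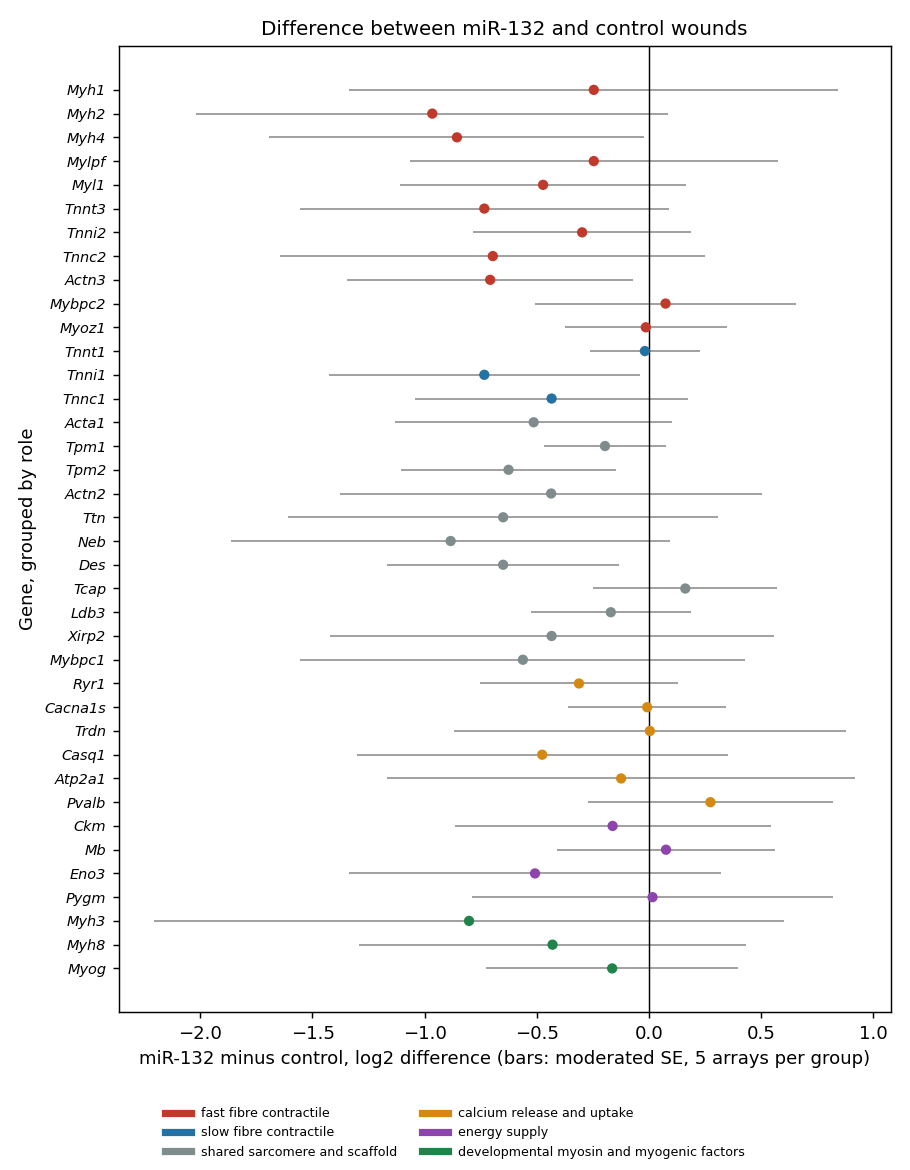
Difference of miR-132 minus control wounds in log2 units for each of the 38 genes tested, grouped by role, with bars for the moderated SE from 5 arrays per group. The points run from -0.97 for Myh2 to 0.27 for Pvalb, and the bar of Myh3 is the widest.

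Developmental genes were 4 members, of which 3 were tested, all with a lower mean. Myh3, the embryonic myosin made in new and regenerating fibres, measured 10.26, 12.24, 13.59, 11.85 and 6.77 in miR-132 wounds, against 13.18, 11.78, 14.58, 10.38 and 8.80 in control wounds. Myh8, the perinatal myosin, measured 8.49, 10.14, 10.20, 8.41 and 6.82 with miR-132, against 10.45, 9.06, 11.21, 7.36 and 8.13 in controls. Both were highest on control replicate 3 and lowest on miR-132 replicate 5, with overlapping groups. The difference of Myh3 was -0.80 (95% interval -3.94 to 2.34; limma adjusted p = 0.904), an interval that holds changes of several fold in either direction, and that of Myh8 was -0.43 (SE 0.86).

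Myog, the factor that drives precursor cells into terminal differentiation, measured 5.35, 6.42, 6.94, 6.85 and 5.11 in miR-132 wounds, against 6.22, 6.11, 8.01, 6.18 and 4.97 in control wounds. Myod1, which commits cells to the muscle lineage, measured 3.42, 3.60, 3.94, 4.16 and 3.49 with miR-132, against 3.65, 3.89, 4.18, 3.73 and 3.65 in controls. Replicate 5 was the lowest array for Myog in the control group and in the miR-132 group, although Acta1 on control replicate 5 lay above 3 of the other 4 control wounds. The difference of Myog was -0.16 (95% interval -1.42 to 1.09), and Myod1 lay below the level filter.

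**Figure D3:**
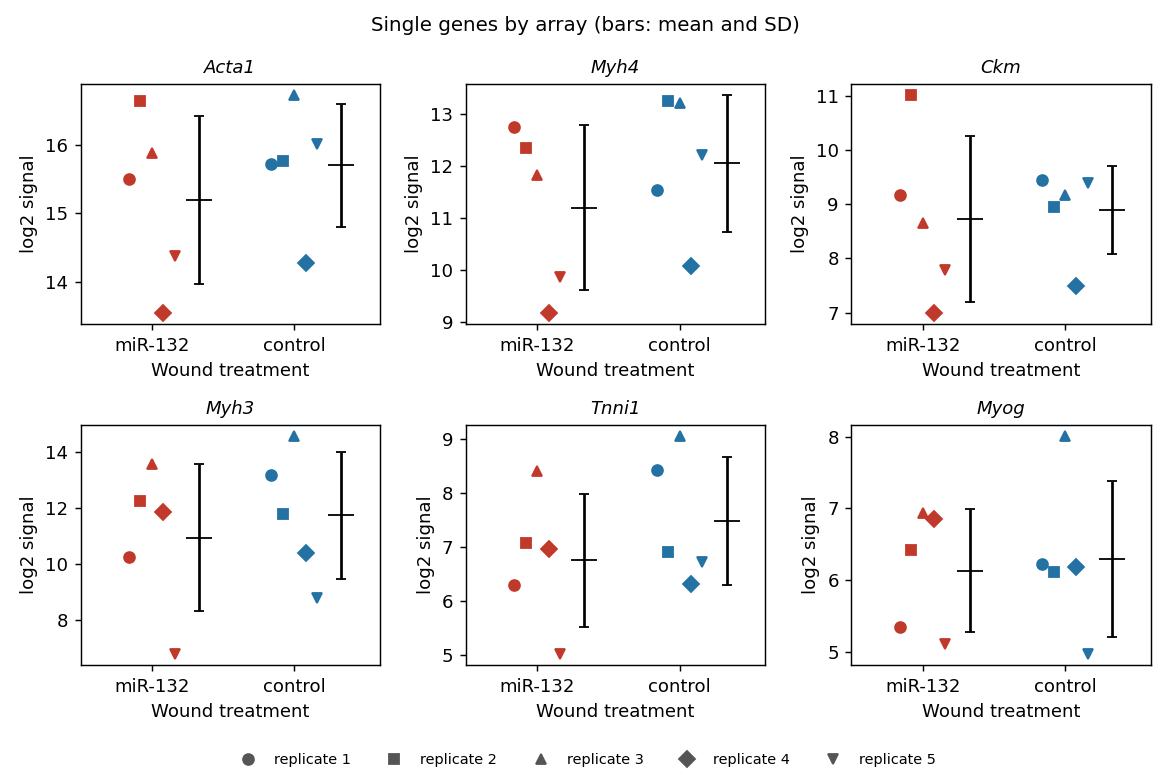
log2 signal of Acta1, Myh4, Ckm, Myh3, Tnni1 and Myog on 5 miR-132 arrays (left of each panel) and 5 control arrays (right), with 1 symbol per replicate number and the mean and SD beside each group. Groups overlap in all 6 panels, and wounds with the same replicate number in the 2 treatments come from different mice.

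Most members varied together across the 10 wounds. Over the 703 pairs of tested members, the median Pearson r was 0.80, 149 pairs lay above 0.9 and 14 lay below 0. The median r of the members with all other genes tested was -0.10. Within the fast list the median r was 0.85 over 55 pairs, and between fast and shared sarcomere genes it was 0.85 over 121 pairs. Between fast and slow genes it was 0.55 over 33 pairs, and between fast and developmental genes 0.44 over 33 pairs. The slow genes in these values are the 3 troponins Tnnt1, Tnni1 and Tnnc1, since Myh7, Myl2 and Myl3 lay below the level filter. These troponins had a median r of 0.88 with developmental genes over 9 pairs. All of these values share the same 10 arrays and are descriptions.

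For 14 pairs, r and Spearman's rho were tested by permutation over the 10 wounds, with r again after leaving out the 2 wounds farthest from the median of Acta1 or of the fast gene. Those 2 were miR-132 replicate 4 and control replicate 4 for Acta1. Acta1 and Ckm gave r = 0.889 and rho = 0.723 (permutation p = 0.00055 and 0.0217; adjusted over 14 pairs 0.0077 and 0.102), and r = 0.754 without the 2 wounds. Acta1 and Des gave r = 0.852 and rho = 0.927 (permutation p = 0.00212 and 0.0003; adjusted 0.00989 and 0.0042), and 0.877 without them. Acta1 and Tpm1 gave r = 0.861 and rho = 0.784 (permutation p = 0.00161 and 0.00911; adjusted 0.00989 and 0.0638), and 0.624 without them. With group means removed, r was 0.903, 0.844 and 0.852, so these relations held within the treatments.

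The other 11 pairs did not pass by r, and Acta1 with Des was the 1 pair of 14 that also passed by rho. Acta1 and Mylpf gave r = 0.697 and rho = 0.624 (permutation p = 0.0263 and 0.0588; adjusted 0.0921 and 0.206), and 0.780 without the 2 wounds. Each fast gene was set against its slow counterpart. Tnnt3 and Tnnt1 gave r = 0.550 and rho = 0.474 (permutation p = 0.0973 and 0.167; adjusted 0.199 and 0.308), and 0.570 without the 2 farthest wounds. The inhibitory pair Tnni2 and Tnni1 gave r = 0.552 and rho = 0.552 (permutation p = 0.0996 and 0.105; adjusted 0.199 and 0.245), and 0.607 without 2. The calcium-binding pair Tnnc2 and Tnnc1 gave r = 0.592 and rho = 0.576 (permutation p = 0.0738 and 0.0874; adjusted 0.199 and 0.245), and 0.700 without 2. The r values of the 3 troponin pairs lay close to each other, and none passed adjustment. Myh4 and Myh7 gave r = 0.487 and rho = 0.389 (permutation p = 0.157 and 0.265; adjusted 0.262 and 0.394), and 0.341 without 2.

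Acta1 was also set against the developmental genes. Acta1 and Myh3 gave r = 0.470 and rho = 0.467 (permutation p = 0.169 and 0.176; adjusted 0.262 and 0.308). Acta1 and Myog gave r = 0.240 and rho = 0.261 (permutation p = 0.502 and 0.466; adjusted 0.639 and 0.593). Both r values were lowered by the 2 wounds of lowest muscle signal. Without miR-132 replicate 4 and control replicate 4 they rose to 0.750 and 0.671. For cells outside the muscle, Acta1 gave r = 0.130 with Acta2 of smooth muscle and myofibroblasts, 0.0924 with Adipoq of fat, -0.02 with Krt14 of keratinocytes and -0.33 with Col1a1 of fibroblasts, with adjusted permutation p-values of 0.838, 0.862, 1 and 0.491. The rho values were 0.109, 0.127, 0.174 and -0.38, with adjusted permutation p-values of 0.800, 0.800, 0.800 and 0.394, and without the 2 wounds r was -0.18, 0.0122, 0.178 and -0.53. Krt14 stood at the upper limit of the scale, 19.93, on 9 of 10 arrays, so its relation could hardly be measured. Col1a1 read the same value, 17.49, on several arrays of both treatments, so its relation was also poorly measured.

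Acta1 and Myh3 were then used as anchors for every other member, a choice made after seeing the data. Of 37 members, 29 correlated with Acta1 by Pearson's r and 22 by Spearman's rho at an adjusted permutation p under 0.05 over 74 relations, with a median r of 0.877 and 15 above 0.9. With Myh3, 7 of 37 passed by r and 9 by rho, with a median r of 0.534. Tnnc1 had r = 0.953 with Myh3 (rho 0.952; adjusted permutation p = 0.00037 and 0.00296), against 0.518 with Acta1. For Tnni1 these values were 0.927 with Myh3 (rho 0.952; adjusted permutation p = 0.000678 and 0.00296) and 0.571 with Acta1, and for Tnnt1 they were 0.841 (rho 0.912; adjusted permutation p = 0.00566 and 0.004) and 0.588.

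Myh8 had r = 0.909 and Myog r = 0.873 with Myh3 (rho 0.903 and 0.927; adjusted permutation p for r 0.00116 and 0.00363, for rho 0.004 and 0.00381), against 0.739 and 0.240 with Acta1. Eno3 (0.740) and Tpm2 (0.706) also passed with Myh3 by r and had higher r with Acta1 (0.880 and 0.930). Of 36 members compared, the 5 with a higher r to Myh3 than to Acta1 were Myh8, Myog, Tnnc1, Tnni1 and Tnnt1. The remaining members had r of 0.64 to 0.96 with Acta1 and -0.16 to 0.74 with Myh3. Among them was Mybpc1, slow myosin-binding protein C, with 0.950 to Acta1 and 0.587 to Myh3. Leaving out the 2 wounds farthest in Myh3, miR-132 replicate 5 and control replicate 5, gave r = 0.989 for Tnnc1, 0.972 for Tnni1, 0.940 for Tnnt1, 0.914 for Myh8 and 0.823 for Myog. Leaving out the 2 wounds farthest in Acta1 raised their r with Acta1 to 0.719, 0.723, 0.705, 0.810 and 0.671. Whether the r with Myh3 differs from the r with Acta1 was not tested.

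**Figure D4:**
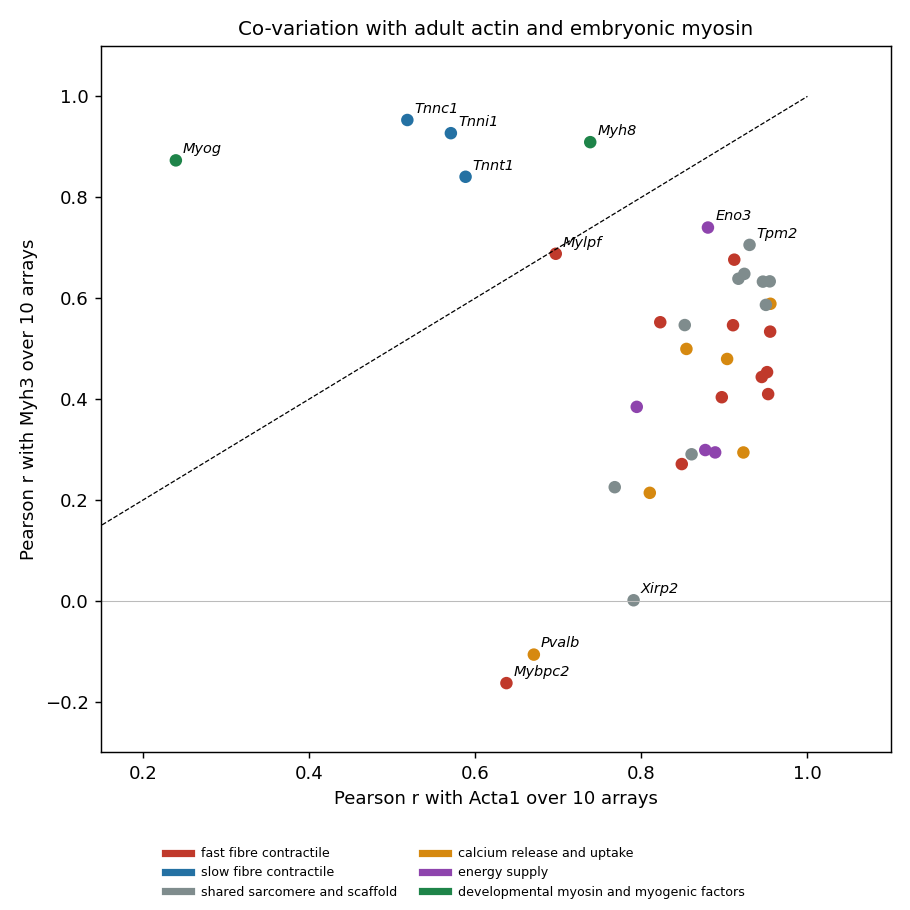
Pearson r over 10 arrays of each muscle gene with Acta1 (horizontal) and with Myh3 (vertical), coloured by role, with a dashed line of equal r. Myog, Tnnc1, Tnni1, Tnnt1 and Myh8 lie above the line, and the other genes lie below it.

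The wounds differed in which of these groups was high. The mean of the 11 fast genes, relative to the control mean, was 0.01, 1.32, -0.26, -1.91 and -1.51 on miR-132 replicates 1 to 5, against 0.40, 0.32, 1.03, -1.88 and 0.12 on control replicates 1 to 5. The 3 slow troponins gave -0.90, -0.04, 0.73, -0.22 and -1.56 with miR-132, against 0.62, -0.33, 1.23, -0.86 and -0.67 in controls. The 3 developmental genes gave -1.06, 0.51, 1.15, -0.06 and -2.86 with miR-132, against 0.86, -0.11, 2.17, -1.12 and -1.79 in controls. miR-132 replicate 4 thus combined a low fast mean with slow and developmental means near the control mean. Its developmental genes were not all near it, with Myh8 at 8.41 against a control mean of 9.24 and Myog at 6.85 against 6.30. Control replicate 5 combined a fast mean near the control mean with low developmental genes. The slow minus fast value averaged 0.07 ± 1.28 in miR-132 wounds and 0.00 ± 0.74 in control wounds (SD, n = 5 each), a gap far smaller than the spread.

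**Figure D5:**
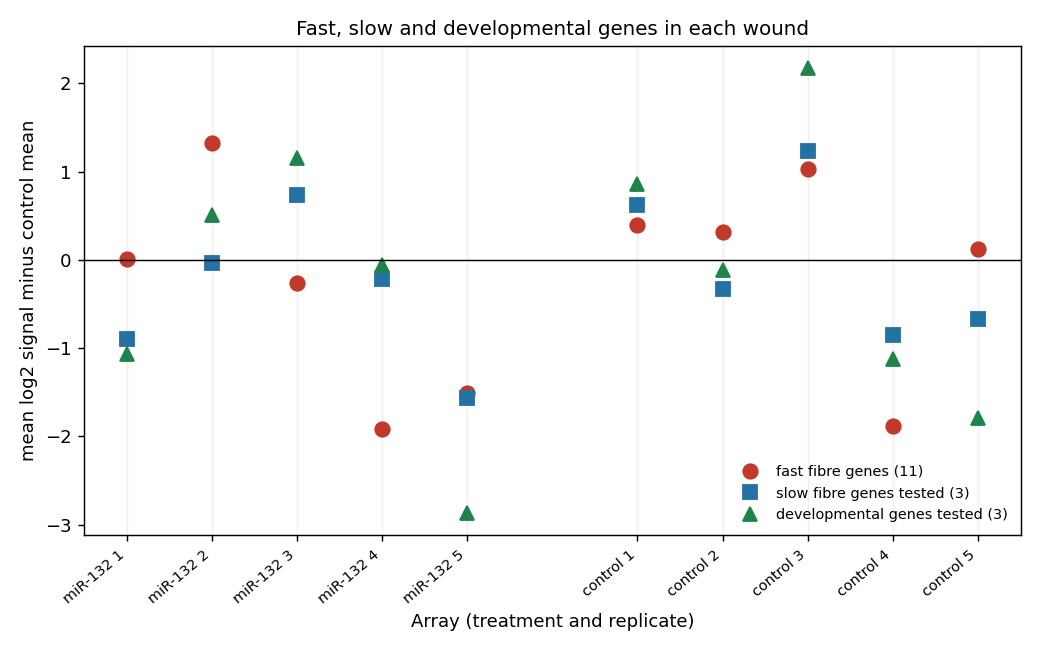
Mean log2 signal, relative to the control mean, of the fast (11 genes), slow (3 tested) and developmental (3 tested) genes on 5 miR-132 arrays (left) and 5 control arrays (right). On miR-132 replicate 4 the fast mean is -1.91 and the developmental mean -0.06, and on control replicate 5 they are 0.12 and -1.79.

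Other genes of the muscle programme, from lists of non-members, showed the same absence of a difference past adjustment. Of 30 further sarcomere genes tested, 24 had lower means, with a median of -0.17 (0.01 without control replicate 3), and 1 had an unadjusted p under 0.05, the broadly expressed tropomyosin Tpm3 at -0.24 (limma adjusted p = 0.597). The next were Pdlim5 at -0.31, Mybph at -0.61 and Pdlim3 at -0.90. Of 16 further calcium genes, 10 were lower and 6 higher, with a median of -0.11. The lowest p was that of the potassium channel gene Kcnj11, at 0.26 (limma adjusted p = 0.597). It was followed by Mrln at 0.28, the calcium pump Atp2a2 at -0.46 and the pump inhibitor Sln at -0.92. Atp2a2 had r = 0.23 to Acta1 and 0.57 to Myh3. Of 18 further energy genes, 9 were lower and 9 higher, with a median of 0.03, led by Cox7a1 at 0.39, Ldha at -0.21, Ucp3 at 0.16 and Eef1a2 at -0.13.

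Regeneration and neuromuscular junction genes were 15 tested of 23, 10 lower and 5 higher, with a median of -0.16 that turned to 0.14 without control replicate 3 and 0.03 without miR-132 replicate 5. The smallest p-values were those of Myf6 at -0.53, Musk at -0.25, the embryonic light chain Myl4 at -0.28 and the fusion factor Mymx at 0.12, with limma adjusted p-values from 0.795 to 0.856. Their variation across wounds resembled that of Myh3, with a higher r to Myh3 than to Acta1 in 11 of 15 and medians of 0.764 and 0.483. The same count was 1 of 18 among the energy genes, 4 of 16 among the further calcium genes and 6 of 30 among the further sarcomere genes. Of the calcium genes, Casq2 had r = 0.986 and Srl 0.906 with Myh3, so a close relation to Myh3 was not particular to the regeneration list. Tnnt2, a troponin of embryonic muscle and heart, had r = 0.970 with Myh3, Myl4 had 0.957, and Mymk, which drives fusion of muscle precursors, had 0.924. Mymk measured 6.99, 8.81, 10.71, 8.47 and 4.86 in miR-132 wounds, against 7.87, 7.82, 10.41, 8.02 and 5.63 in control wounds, so replicates 3 were high and replicates 5 low in each treatment. Tnnt2, Mymk, Casq2 and Srl were named after their values were seen, and these r values are descriptions over 10 wounds.

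The 10 non-members whose signal followed the mean of the 38 genes most closely were Lmod2 (r = 0.984), Klhl41 (0.981), Rtn2 (0.970), Nrap (0.967), Klhl31 (0.962), Jph1 (0.960), Mef2c (0.955), Dmd (0.953), Fabp3 (0.952) and Cpt1b (0.951), over 10 arrays. Lmod2 is a thin filament protein, and Dmd encodes dystrophin.

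Markers of other cells of the wound were measured beside these genes. In the white fat list, 8 of 8 markers had higher means in miR-132 wounds, with a median of 0.31 that was 0.03 without miR-132 replicate 1 and 0.09 without control replicate 4. Its mean signal ran from 8.0 to 11.47 in miR-132 wounds and from 7.91 to 10.45 in control wounds. All 9 basal keratinocyte markers had lower means, with a median of -0.20 and signal of 10.40 to 11.13 in miR-132 wounds and 10.64 to 11.65 in control wounds. Krt5, which gives that median, and Krt14 stood at the upper limit of 19.93 on 8 and 9 of 10 arrays. All control arrays were among them, so neither could have a higher mean in miR-132 wounds. Smooth muscle and myofibroblast markers split into 4 lower and 4 higher (6.69 to 7.47 in miR-132 wounds, 6.87 to 7.13 in control wounds). Fibroblast markers were 5 lower and 2 higher, at 12.81 to 13.80 in miR-132 wounds and 12.99 to 13.67 in control wounds. Endothelial markers were 5 lower and 1 higher of 7, at 6.52 to 7.60 in miR-132 wounds and 6.89 to 7.56 in control wounds. Macrophage markers were 4 lower and 3 higher, at 11.21 to 12.54 in miR-132 wounds and 11.12 to 12.29 in control wounds. Of the marker genes, Smtn (-0.36) and Trp63 (-0.68) had an unadjusted p under 0.05 and limma adjusted p-values of 0.597. The part of these cells in the muscle values was not tested.

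The size of the lower shift depended on the wounds used, and its sign turned with the hybridisation spike-ins as a covariate. The median stayed below 0 on leaving out any single wound. Without control replicate 4, the median difference of the members was -0.86 with 38 of 38 lower, and without miR-132 replicate 2 it was -0.79 with 37 of 38 lower. Without miR-132 replicate 5 it was -0.06 with 22 lower, without miR-132 replicate 4 it was -0.09 with 26 lower, and without control replicate 3 it was -0.09 with 23 lower. With the hybridisation spike-ins as a covariate it was 0.19, with 25 of 38 higher and 19 signs turned. The spike-ins of miR-132 replicates 3, 4 and 5 read above those of every control array. Spike-in level and treatment are therefore partly confounded, and this fit cannot fully separate them. That covariate gave medians of 0.13 for fast, 0.17 for shared, 0.74 for calcium and 0.95 for energy genes, against -0.73 for slow and -0.53 for developmental genes. With Acta1 as a covariate, an alternative chosen after seeing the data, the median difference of the other members was 0.10, with 24 of 37 higher. Acta1 is itself a member with a lower mean, and its median r with the others was 0.877. Such a fit takes out the shift that they share, so it cannot show whether the sign depends on covariates. In none of these settings did a member pass an adjusted p of 0.05 in limma.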

How the data were processed

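Total RNA from wound-edge biopsies was hybridised to 10 Affymetrix Clariom D arrays, 5 per treatment. The authors ran RMA in Affymetrix Expression Console 1.4, per the submitters' processing notes. RMA subtracts background, puts arrays on a common distribution and combines the probes of a feature. The deposited values are taken as log2 signal from their range and shared upper limit of 19.93, since the labels name no scale. The sources used here do not give the genome build behind the features. The number of arrays limits the precision. All value columns matched a sample, 0 were unused and 0 pairs of arrays were identical.

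The table held 72688 features. The platform annotation gave 31388 features 1 gene and 1362 several, which were not named, and 39938 are unnamed here. Symbols of 1611 features were updated through gene identifiers. For 423 genes with several features, none of them members, the brightest by mean over all arrays was kept. Genes with a mean above 4.171, the median over all features, were tested (17691 of 30827).

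The miR-132 minus control difference was fitted with limma 3.58.1 in R 4.3.3 (lmFit, eBayes with intensity trend, two-sided) without covariates, with Benjamini-Hochberg adjustment over all genes tested. Correlations over wounds used 100000 permutations (Python 3.11.15, numpy 2.4.6), adjusted over 14 fixed pairs and over 74 anchor relations. The fit was tested on simulated data. The members and lists were chosen with earlier results of these data known. Named genes are the members, the 4 genes of smallest p in each list of further muscle or marker genes and the 10 non-members most like the member mean. Over all genes tested, deviations of same-numbered wounds were weakly related (r of -0.03 to 0.17), and wounds were not paired by number. Among the members, the developmental mean was highest on replicate 3 and lowest on replicate 5 of each treatment. The fast mean was lowest on replicate 4 of each. Whether same numbers mark a shared step was not tested. Alternatives changed the normalization, the level filter, array weights, covariates, the feature rule and the wounds included.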

Additional observations from a re-analysis of the deposited data

Results flagged for a closer look

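In 4 of 98 groups of 5 wounds tested, 1 wound lay apart from the others by Dixon's criterion, and chance alone marks about 1 in 20 groups. All 4 concern control replicate 4 at the low end, and the genes vary together, so they are not separate observations. Control replicate 4 had a Myh1 signal of 11.34, against 14.60 to 15.89 in the other 4 control wounds. Its Myoz1 signal was 5.96, against 6.71 to 6.94 in the others. Its Trdn signal was 6.70, against 9.46 to 10.20. Its Ckm signal was 7.49, against 8.94 to 9.45. Hybridisation spike-ins on this array read 10.43, the lowest of the 10 arrays, and its signal span of 4.96 was within the control range. Without it the median difference of the members was -0.86.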

How the results depend on the processing

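The count of members past adjustment was 0 under every alternative tried. Over all genes, it was 52 without miR-132 replicate 3 and 0 otherwise, with the cause not tested, so leaving out single wounds gave 0 to 52. The median member difference ran from -0.86 to -0.06 on leaving out single wounds, that of fast genes from -0.997 to -0.13, slow genes from -0.73 to -0.09, shared sarcomere genes from -1.04 to -0.06, calcium genes from -0.55 to 0.33, energy genes from -0.68 to 0.27 and developmental genes from -0.90 to 0.09. It was -0.21 with further quantile normalization (27 of 38 lower), -0.50 with each array centred on its median (34 lower) and -0.90 with array weights (38 lower). With the replicate number as a block it stayed at -0.43 with 0 genes past adjustment. The block changed no other call, and the sources used here do not say what the numbers stand for. Of the 14 gene pairs, 3 to 4 passed on leaving out single wounds, and 1 passed without miR-132 replicates 2 and 5, from fewer wounds. With a level filter at a mean above 6, no value could be given for the heart muscle and Schwann cell lists. Values near the level filter, such as those of Myh7, Myl2, Myl3 and Myod1, cannot show small differences.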

Other observations

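The marker genes with the smallest p in each list are given as log2 differences (miR-132 wounds minus control wounds), and none passed adjustment in limma. The white fat adipokines Retn, Lep and Adipoq stood at 1.77, 1.18 and 0.84, and the fatty acid binder Fabp4 at 0.14. Retn measured 13.63, 9.53, 6.28, 9.40 and 7.99 in miR-132 wounds, against 7.28, 7.73, 7.32, 5.87 and 9.78 in control wounds, so replicate 1 alone lay far above all others. That wound was not the one with the highest muscle signal. Keratinocyte genes Itgb4, Lamb3 and Krt5 stood at -0.34, -0.41 and -0.20, with Krt5 at the upper limit of the scale on 8 of 10 arrays. Smooth muscle genes Actg2, Cnn1 and Acta2 stood at -0.12, 0.09 and -0.20. Fibroblast genes Fbln1, Col1a2, Col1a1 and Dcn stood at -0.13, -0.25, -0.20 and 0.05. Dcn read 17.88 on every control array, and Col1a1 read 17.49 on several arrays of both treatments. Endothelial genes Flt1, Pecam1, Emcn and Cdh5 stood at -0.25, -0.27, 0.25 and -0.33. Macrophage genes Itgam, C1qa, Cd68 and Mrc1 stood at -0.59, 0.34, -0.20 and 0.20.

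Heart muscle markers averaged 4.39 to 4.72 in miR-132 wounds and 4.35 to 4.75 in control wounds, with Myh7b, Tnni3, Nppb and Myl7 at differences of 0.11, 0.08, -0.23 and 0.06. Brown fat markers averaged 5.45 to 6.02 in miR-132 wounds and 5.56 to 5.98 in control wounds, with Elovl3, Zic1, Dio2 and Cpt1b at -0.67, -0.06, -0.03 and -0.07. With Acta1, r was 0.93 for Cpt1b, 0.91 for Ppargc1a and 0.77 for Dio2, so part of this list followed muscle. For Cidea, Elovl3 and Zic1 it was -0.13, -0.09 and 0.23. Only Egr2 (-0.15) and Mbp (-0.05) of 6 Schwann cell and nerve genes were tested.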
